A study of Homo sapiens with 16 samples.

Results

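RAD21 occupancy was compared between vehicle cells and cells given 200 mM sorbitol for 1 h, which makes the medium hyperosmotic. The cells were HEK293, a human embryonic kidney cell line, and the line used here carries the genotype eGFP-YAP, which vehicle and sorbitol cells share. CUT&Tag was used, in which an antibody brings the transposase Tn5 to its target so that nearby DNA is cut, tagged and sequenced. The comparison rests on 2 RAD21 libraries with vehicle and 2 with sorbitol, 4 of the 16 libraries of the series; the others profile CTCF, YAP1 (read through its GFP tag) and the histone mark H3K27ac. The labels say that controls were collected in parallel, while the table's column names place vehicle at time zero, so time and treatment may differ together. The series design also describes serum starvation ahead of sorbitol. Nothing in the labels says that replicates came from separate cultures, so p-values measure the spread between these libraries, which may be technical. The members were all peak intervals on chromosomes 1 to 22 and X outside the YAP1 gene, 73975 of the 74404 intervals in the table. At start sites of the HEK293 markers PAX2, LHX1 and EMX2 the vehicle H3K27ac libraries held 214 to 580 counts each, against at most 10 at 8 markers of other cell types.

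RAD21 is the kleisin subunit of cohesin, the ring-shaped complex that holds DNA strands together. Cohesin extrudes loops of chromatin, and CTCF bound to its motif halts it, so that cohesin accumulates at CTCF sites and folds the genome into loops and domains. Cohesin is loaded at many places, including active promoters and enhancers, which carry H3K27ac. NIPBL supports loading and extrusion, WAPL releases the ring, and active transcription can push cohesin toward gene ends. The question of the comparison is how RAD21 occupancy differs under this stress.

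The sequences that follow show 2 kinds of RAD21 interval that gained counts, and 1 that lost them. Each is the central 300 bases of its interval in hg38, in lower case, with capitals for the best match to the CTCF consensus where it has at most 2 mismatches. The short motifs searched on both strands in the rises were AP-1 (TGANTCA), CRE (TGACGTCA), TEAD (GGAATG) and SP/KLF (GGGCGG), and neither rise window held any of them. These motifs occur in 8.43%, 0.510%, 14.4% and 26.6% of all members' central windows, and a CTCF consensus with at most 2 mismatches in 35.6%.
SEMA4D intron, rise (chr9:89371987-89372286, plus strand): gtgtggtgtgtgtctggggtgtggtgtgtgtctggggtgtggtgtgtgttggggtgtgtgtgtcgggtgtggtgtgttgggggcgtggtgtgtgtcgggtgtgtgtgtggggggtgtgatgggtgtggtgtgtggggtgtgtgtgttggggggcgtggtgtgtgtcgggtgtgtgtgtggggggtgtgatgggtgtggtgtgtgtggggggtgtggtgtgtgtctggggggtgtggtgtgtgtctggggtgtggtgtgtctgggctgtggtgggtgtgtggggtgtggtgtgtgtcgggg
EGR1 coding exon, rise (chr5:138466945-138467244, plus strand): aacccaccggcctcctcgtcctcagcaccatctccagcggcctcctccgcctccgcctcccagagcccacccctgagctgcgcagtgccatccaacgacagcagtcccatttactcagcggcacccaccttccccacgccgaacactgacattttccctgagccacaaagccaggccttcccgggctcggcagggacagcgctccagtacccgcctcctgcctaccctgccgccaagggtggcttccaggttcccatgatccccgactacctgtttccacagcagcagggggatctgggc
near NFKBIA, fall (chr14:35413296-35413595, plus strand): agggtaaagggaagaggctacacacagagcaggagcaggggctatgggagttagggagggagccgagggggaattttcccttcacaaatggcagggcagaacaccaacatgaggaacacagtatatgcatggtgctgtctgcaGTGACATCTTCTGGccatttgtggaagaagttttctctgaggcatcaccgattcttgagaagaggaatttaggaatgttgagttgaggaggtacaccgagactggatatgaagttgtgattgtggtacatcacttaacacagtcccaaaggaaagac
The SEMA4D window is a GT-rich repeat with 83 distinct 8-letter words, whereas the EGR1 window has 284 and the NFKBIA window 292. The median over all members was 290.

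The best CTCF match in 6 intervals that lost RAD21 is printed next, with 15 bases on each side, read on the strand of the motif, and the 14 matched letters in capitals. They were picked as examples from the 12 named falls, and each holds a match. GAREM1, GPR61, ABTB2 and ENSG00000233018 had 1 mismatch, and NFKBIA and DEF6 had 2. LINC01348 and ENSG00000277702 also had 2 and are not printed. Of all 12, 4 had 1 mismatch, 4 had 2, and ERVH48-1, SOX6, ENSG00000279064 and GTF2H2C had more than 2. These matches were sought in whole intervals, where 3584 of all 73975 members had 0 mismatches, 10057 had 1 and 18428 had 2.
near NFKBIA (chr14:35413424-35413467, minus strand): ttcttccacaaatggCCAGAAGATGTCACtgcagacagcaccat
GAREM1 intron (chr18:32158187-32158230, plus strand): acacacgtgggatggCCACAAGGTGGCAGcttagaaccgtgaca
near GPR61 (chr1:109532449-109532492, minus strand): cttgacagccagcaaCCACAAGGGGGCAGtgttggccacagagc
ABTB2 intron (chr11:34174486-34174529, plus strand): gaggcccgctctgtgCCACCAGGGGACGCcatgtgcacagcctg
near ENSG00000233018 (chr1:235093991-235094034, plus strand): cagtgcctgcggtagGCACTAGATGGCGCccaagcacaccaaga
DEF6 promoter (chr6:35298437-35298480, plus strand): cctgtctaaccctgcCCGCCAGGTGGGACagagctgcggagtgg
For comparison, these are the matches in the strongest distal RAD21 intervals of the whole data, none of which was called changed. AKAP1 has 0 mismatches and the others have 1.
near ENSG00000254744 (chr15:99928470-99928513, plus strand): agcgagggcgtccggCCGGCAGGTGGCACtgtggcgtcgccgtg
CDH15 coding exon (chr16:89192981-89193024, minus strand): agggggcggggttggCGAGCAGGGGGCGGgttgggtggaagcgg
past the end of AKAP1 (chr17:57131131-57131174, plus strand): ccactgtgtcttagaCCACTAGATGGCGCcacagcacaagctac
chromosome 19 array (chr19:50128625-50128668, minus strand): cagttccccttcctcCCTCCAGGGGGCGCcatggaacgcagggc
The last of these is 1 copy of a tandem array on chromosome 19, described with the strong sites further on.

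The RAD21 libraries were shallow and unequal. Member counts were 1341257 and 602195 in the vehicle libraries and 614958 and 520367 in the sorbitol libraries. The median member held 8 counts in the deepest library and 2 in both sorbitol libraries. A small group of 28 intervals, each above 0.1% of a library's member counts, took 14.6% and 23.5% of member counts with vehicle and 29.7% and 28.2% with sorbitol. They comprise 10 mitochondrial-like intervals, 5 in ribosomal DNA, the pseudogene YAP1P1 and 12 others, the largest of which is a GC-rich interval in LINC00486 (chr2:32916142-32916614). Reads of the copied sequences could belong to other copies. At 26 of the 28, both sorbitol libraries had a higher share than both vehicle libraries. The main class shares are therefore given with and without these intervals, and finer classes without them, with values for all members where they differ in sign or in overlap of the groups. A share is relative, so a class can only rise where another falls, and a change in total RAD21 on chromatin cannot be told from these counts.

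Distal CTCF-motif intervals held a smaller part of RAD21 counts with sorbitol. The 10181 members further than 1 kb from a transcription start site that hold the CTCF consensus with at most 1 mismatch took 15.0% and 14.7% of RAD21 counts with vehicle and 9.10% and 8.84% with sorbitol, leaving out the 28 dominant intervals. The groups did not overlap, but this held in 97 of all 105 classes without the dominant intervals and in 87 with them, so it does not single out a class. The log2 change of the share was -0.73 ± 0.03 (SD, n = 2 per group), and -0.91 ± 0.13 with the dominant intervals kept. An exact two-sided permutation test of 2 against 2 libraries cannot go below p = 0.33, which is what this class and every other class with groups apart gave. The lower share was measured at every distance from a start site: -0.71 ± 0.04 at 1 to 5 kb, -0.74 ± 0.04 at 5 to 20 kb, -0.72 ± 0.08 at 20 to 100 kb and -1.07 ± 0.06 over 100 kb. The change was ordered by how well the motif matched. Over all members without the dominant intervals, the change was -0.57 ± 0.04 for intervals with 0 mismatches, -0.45 ± 0.02 with 1, 0.00 ± 0.02 with 2 and 0.22 ± 0.03 with none of these. With the dominant intervals kept, the value for 2 mismatches was -0.13 ± 0.11 and its groups did not overlap; the others were -0.76 ± 0.14, -0.54 ± 0.13 and 0.24 ± 0.12.

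Promoters held a larger part of RAD21 counts, and also of CTCF counts (log2 change 0.23 ± 0.02 without the dominant intervals). Members within 1 kb of a start site (25132 without the dominant intervals) took 53.6% and 52.3% of RAD21 counts in vehicle libraries, against 59.6% and 60.4% in sorbitol libraries, a log2 change of 0.18 ± 0.03. Promoters without the consensus changed by 0.24 ± 0.03 and promoters with it by -0.14 ± 0.04, so the 2 kinds of promoter had changes of opposite sign. Zones within 10 kb past the ends of protein-coding genes, where cohesin pushed by transcription can collect, held 3242 members. Their share changed by -0.47 ± 0.02 without the dominant intervals and by -0.60 ± 0.11 with them. Within these zones, intervals with the consensus changed by -0.72 ± 0.06 and those without by -0.29 ± 0.01. Distal intervals without the consensus changed by -0.05 ± 0.05 as a class, and by -0.02 ± 0.14 with overlapping groups when the dominant intervals were kept. For CTCF, gene-end zones changed by -0.36 ± 0.01 without the dominant intervals and by -0.52 ± 0.05 with them.

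**Figure D1:**
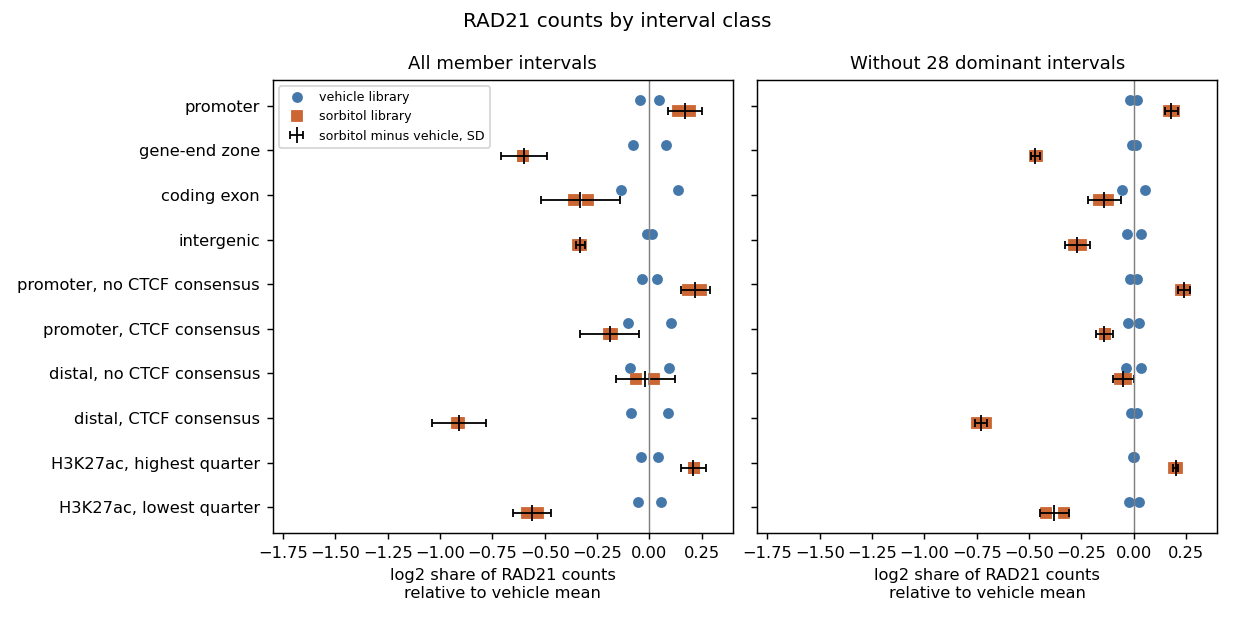
Share of RAD21 counts in 10 classes of interval in each library, as the log2 ratio to the vehicle mean, with all members (left) and without the 28 dominant intervals (right). Circles are vehicle libraries, squares sorbitol libraries, and the tick with its bar is the log2 change with its SD over 2 libraries a group. Distal CTCF consensus intervals lie farthest to the left, at -0.91 and -0.73, and promoters to the right, at 0.17 and 0.18.

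Histone acetylation in vehicle cells separated the members as well. By vehicle H3K27ac, RAD21 share changed by -0.38 ± 0.07 in the lowest 25% of members, -0.41 ± 0.03 in the second 25%, -0.21 in the third and 0.20 ± 0.01 in the highest, without the dominant intervals. The highest 25% took 55.7% and 55.5% with vehicle and 63.6% and 64.2% with sorbitol. Among distal members in the highest 25% for vehicle CTCF, those with H3K27ac below its highest 25% changed by -0.59 ± 0.02 and those within it by 0.16 ± 0.12. With the dominant intervals kept, the last value was 0.27 ± 0.40 and the libraries of the groups overlapped. Distal consensus intervals changed by -0.30 ± 0.08 in the highest H3K27ac 25% (469 intervals) and by -0.89 ± 0.05 in the lowest. The CTCF share of members changed in a similar order without the dominant intervals. It changed by -0.44 ± 0.02, -0.28 ± 0.01, -0.11 ± 0.01 and 0.23 ± 0.01 from the lowest to the highest H3K27ac 25%.

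GC content moved with these changes. Without the dominant intervals, the share of distal consensus intervals changed by -1.02 ± 0.04 in the GC-poorest quintile of members and by -0.35 ± 0.08 in the GC-richest. Distal intervals without the consensus changed by -0.18 ± 0.09 and 0.61 ± 0.07 in the same quintiles, and promoters by -0.32 ± 0.08 and 0.32 ± 0.05. CTCF shares in these quintiles changed by -0.51 ± 0.06 and 0.50 ± 0.10 at distal intervals without the consensus. At promoters they changed by -0.48 ± 0.08 and 0.43 ± 0.03, and at distal consensus intervals by -0.86 ± 0.05 and 0.15 ± 0.01. Within each quintile, the ratio of RAD21 counts in distal intervals with the consensus to those without was lower in both sorbitol libraries. Its log2 change was -0.84 ± 0.09, -0.49 ± 0.01, -0.44 ± 0.06, -0.55 ± 0.13 and -0.96 ± 0.03 from the GC-poorest to the GC-richest quintile. The part of GC content in the remaining class differences was not tested. With the dominant intervals kept, promoters in the 2 GC-poorest quintiles changed by 0.63 ± 0.25 and 0.40 ± 0.12 instead of -0.32 ± 0.08 and -0.21 ± 0.03, so their sign depended on the dominant intervals, as did that of the fourth quintile (-0.10 ± 0.13 with them, 0.08 ± 0.03 without).

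**Figure D2:**
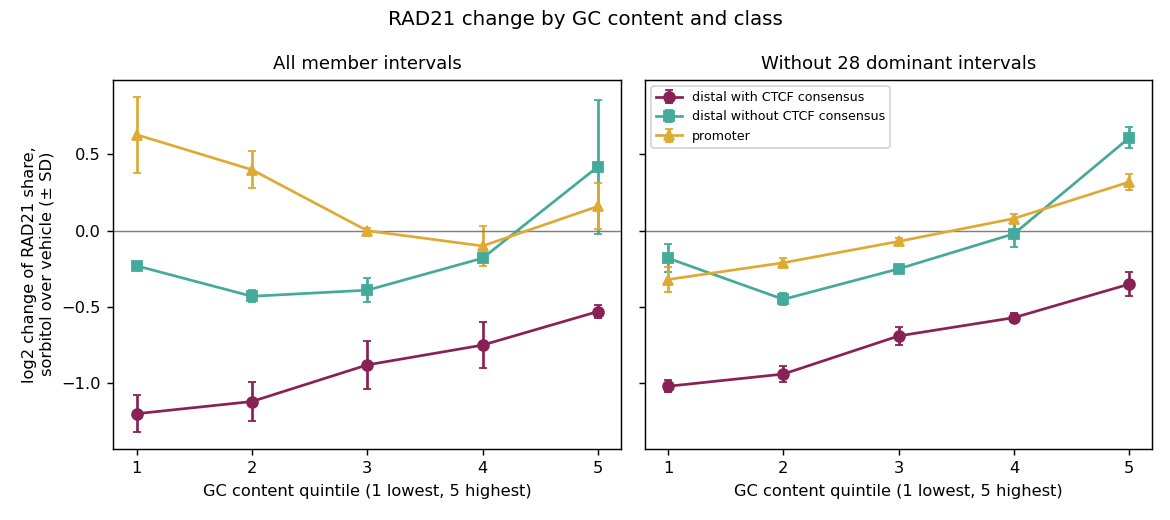
Log2 change of RAD21 share, sorbitol over vehicle, against GC content quintile for promoters and for distal intervals with and without the CTCF consensus, with all members (left) and without the 28 dominant intervals (right). Points are means and bars the SD over 2 libraries a group. Distal consensus intervals are below the other distal intervals in every quintile of both panels, for example -1.02 against -0.18 in the lowest and -0.35 against 0.61 in the highest on the right.

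Single intervals were tested where counts allowed. The edgeR quasi-likelihood test with Benjamini-Hochberg adjustment was run on the 14918 members (20.2%) that passed the count filter, and 587 (3.93%) were called at an adjusted p under 0.05, 412 higher (2.76%) and 175 lower (1.17%). Scaling set the balance of directions: TMM gave 412 higher and 175 lower, scaling to total member counts 287 and 268, and scaling to the weakest 25% of tested intervals 1346 and 112. These scalings moved the median log2 change of tested intervals from 0.02 to -0.18 and 0.43. Without the first sorbitol library 1239 intervals were called and without the second 1085. DESeq2 called 304, 279 higher and 25 lower. With a mean of at least 50 counts the split was 133 higher and 143 lower.

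The classes differed in the direction of their calls. Of 10172 tested promoters, 239 (2.35%) were higher and 43 (0.423%) lower, with a median log2 change of 0.15. Of 1758 tested distal consensus intervals, 3 (0.171%) were higher and 47 (2.67%) lower, with a median of -0.86. Of 2988 tested distal intervals without the consensus, 170 (5.69%) were higher and 85 (2.84%) lower, with a median of -0.21, so falls were about as frequent there as at consensus sites and rises outnumbered them. The 3 consensus intervals that rose lay in an intron of FLNA, which encodes an actin crosslinker, and at 2 places nearest to CACNA1I, a calcium channel gene; they are named because they are few. Their log2 changes were 1.64 ± 0.34, 1.61 ± 0.32 and 1.49 ± 0.36 (SE). Gene-end zones held 10 higher and 23 lower of 612 tested. The tested distal consensus intervals were 17.3% of that class, so these counts describe its stronger members and not the class.

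**Figure D3:**
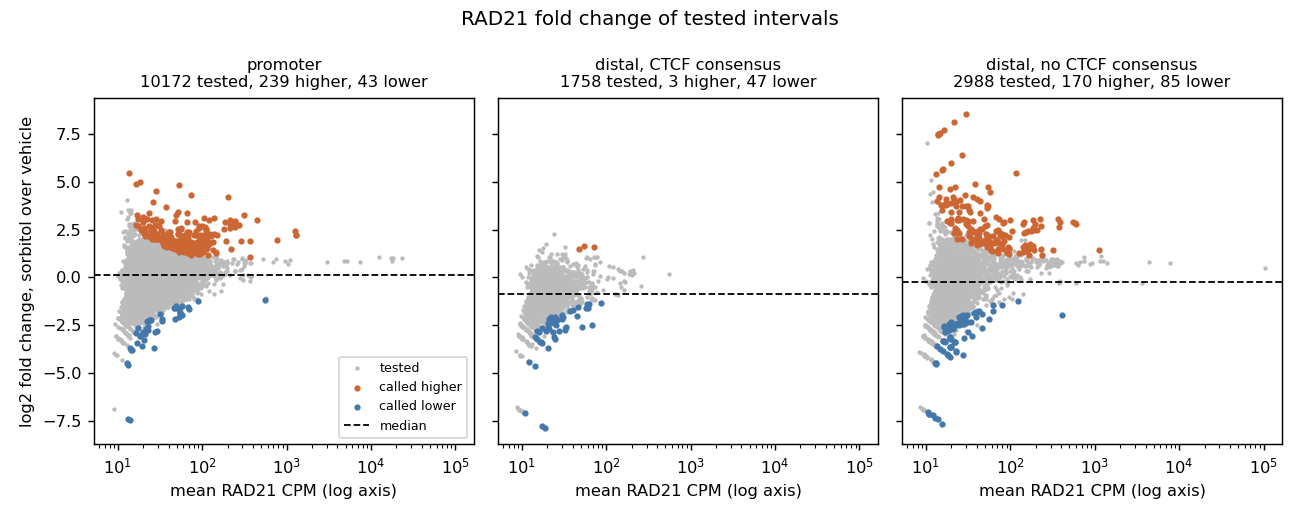
Log2 fold change of each tested interval, sorbitol over vehicle, against its mean RAD21 CPM on a log axis, for promoters and for distal intervals with and without the CTCF consensus. Grey points were tested, orange and blue points were called higher and lower, and dashed lines are class medians (0.15, -0.86 and -0.21). In the middle panel 3 points are called higher and 47 lower. The 23 points beyond 7 in size all have 0 counts in both libraries of a group, where the fitted value is no bound.

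Rises and falls lay in different sequence. The 412 rises had a median GC content of 65.0%, 18.2% held the CTCF consensus with at most 2 mismatches in their central 300 bases, and 52.7% were in the highest 25% for vehicle CTCF. The 175 falls had 55.1% GC, 54.3% with the consensus and 94.3% in the highest CTCF 25%. Among all tested intervals these values were 62.3%, 33.8% and 68.2%. Falls could pass the count filter on vehicle counts alone and rises on sorbitol counts alone. Falls are therefore drawn from intervals strong with vehicle, and the part of the filter in these differences was not tested. Chromosome 19 held 15.0% of the rises and 1.71% of the falls, against 7.51% of tested intervals. Rises were also frequent in repeats. Of the rises, 126 (30.6%) had fewer than 200 distinct 8-letter words in their central 300 bases, against 5.05% of tested intervals and 2.86% of the falls; this measure was chosen after the data were seen. Of the 170 distal rises without the consensus, 103 were of this kind, which leaves 67, and of the 239 promoter rises 23 were. Reads in such repeats may belong to other copies. Refitting without all intervals of low complexity gave 406 higher and 294 lower.

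The largest named rise outside sequence of low complexity was in EGR1, an immediate early transcription factor gene induced within minutes by growth and stress signals. Its interval in the coding exon (chr5:138466651-138467537) held 6 and 2 vehicle counts against 59 and 53 sorbitol counts. Scaled to library size, as CPM (counts scaled to a common library total), that is 3.98 and 3.30 against 104 and 107. The log2 change was 4.75 ± 0.44 (SE, edgeR adjusted p = 4.2e-04). A neighbouring interval over the EGR1 promoter (chr5:138463916-138466561) went from 82.5 ± 2.48 to 305 ± 58.9 CPM (SD, n = 2), a log2 change of 1.88 ± 0.29. The groups did not overlap at the promoter interval, while at the coding exon interval the rule that named it required this.

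GADD45B, a stress-induced growth arrest gene, had the most counts among the 5 largest rises. Its promoter interval (chr19:2476257-2477466) held 34 and 10 counts in the vehicle libraries, against 201 and 204 in the sorbitol libraries, or 22.6 and 16.5 against 354 and 410.3 CPM. The log2 change was 4.23 ± 0.33 (edgeR adjusted p = 2.7e-04). A small interval just past the gene (chr19:2479311-2479529) rose from 2.31 ± 1.39 to 39.5 ± 1.06 CPM. The sorbitol libraries were above the vehicle libraries at the small interval, while at the promoter interval the rule that named it required this.

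The other named promoter rises were at MKNK2, EEF2, OAZ1, TNFSF9, MARCKSL1 and PERM1. MKNK2, a kinase that phosphorylates the translation factor eIF4E, rose from 48.4 and 69.2 to 572 and 549 CPM (log2 change 3.29 ± 0.31). EEF2, the translation elongation factor that moves the ribosome along, rose from 10.6 and 13.2 to 107 and 137 CPM (3.38 ± 0.37). OAZ1, the antizyme that limits polyamine synthesis, rose from 26.5 and 14.8 to 199 and 183 CPM (3.11 ± 0.33). These 3, GADD45B and TNFSF9 were 5 of the 12 largest rises and all lay on chromosome 19. TNFSF9, a ligand of the tumour necrosis factor family, rose by 3.42 ± 0.49 and MARCKSL1, an actin-binding protein, by 3.13 ± 0.34. FAM166A rose by 4.46 ± 0.45, in a coding exon (chr9:137245045-137245809). All of these had an edgeR adjusted p of at most 0.0024.

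Among the 12 largest rises, 4 were repeats of low complexity. They lay in introns of SEMA4D, PTPRN2 and CROCC2 and at the promoter of PERM1, with 83, 85, 70 and 72 distinct 8-letter words. SEMA4D (chr9:89371819-89372453), a semaphorin gene, held 11 and 0 counts in vehicle libraries, against 87 and 150 in sorbitol libraries. Its fitted log2 change of 5.47 ± 0.58 rests on a vehicle library at 0 and has no fold without the other vehicle library. PTPRN2, PERM1 and CROCC2 changed by 3.80 ± 0.50, 4.31 ± 0.43 and 3.15 ± 0.42. At PTPRN2 (chr7:158148044-158148932) H3K27ac was also called higher (edgeR adjusted p = 7.7e-05), with 1 and 0 vehicle counts against 15 and 38 sorbitol counts, too few with vehicle for a fold.

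The largest fall lay near NFKBIA, which encodes an inhibitor of NF-kappa-B, 8372 bases from its start site (chr14:35413121-35413769). It held 80 and 45 vehicle counts against 6 and 2 sorbitol counts, or 53.1 and 74.2 against 10.6 and 4.02 CPM. The log2 change was -3.04 ± 0.54 (edgeR adjusted p = 0.0088), and leaving out either sorbitol library gave -3.82 and -2.45. An intron of ERVH48-1 (chr21:42923756-42924426) fell from 53.7 and 56.0 to 7.04 and 8.04 CPM, a log2 change of -2.84 ± 0.50. An intron of GAREM1 (chr18:32157892-32158679) fell from 61.0 and 52.7 to 10.6 and 6.03 CPM (-2.74 ± 0.50). The intergenic interval near GPR61 (chr1:109532253-109533234), an orphan receptor gene, fell from 75.0 and 101 to 12.3 and 16.1 CPM (-2.60 ± 0.41). An intron of ABTB2 (chr11:34173968-34174817) fell from 56.4 and 57.7 to 8.80 and 10.1 CPM (-2.58 ± 0.47). By the rule that named them, the groups did not overlap at any of these.

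A pair of the falls were neighbours on chromosome 1, 35579 and 25525 bases from the start of TOMM20, a receptor of mitochondrial protein import. The first, near LINC01348 (chr1:235083629-235084320), fell by 2.62 ± 0.44 and the second, near ENSG00000233018 (chr1:235093206-235094374), by 2.50 ± 0.39 on the log2 scale. Among the promoters, that of C11orf58 inside SOX6 (chr11:16613520-16614403) changed by -2.78 ± 0.63, that of DEF6, a guanine nucleotide exchange factor, by -2.26 ± 0.48 and that of GTF2H2C, a subunit of TFIIH with near-identical copies, by -2.19 ± 0.45. These 3 were not stable. SOX6 was no longer called without the first vehicle library (-1.95, adjusted p = 0.31), DEF6 without the first sorbitol library (-1.85, adjusted p = 0.054) and GTF2H2C without the second vehicle library (-1.74, adjusted p = 0.086), all by edgeR. SOX6 was also -2.04 without the first sorbitol library and -3.77 without the second. The fall near ENSG00000277702 (chr1:143393057-143393734) was -2.40 ± 0.57 and was lost with GC-corrected offsets (-2.06, edgeR adjusted p = 0.068), without the first vehicle library (-2.01) and without the second sorbitol library (-1.72). That near ENSG00000279064 (chr21:5795206-5795943) was -2.32 ± 0.57 and was lost with GC-corrected offsets (-1.67, edgeR adjusted p = 0.13), without the second vehicle library (-1.94) and without the second sorbitol library (-1.57). Without the first sorbitol library these 2 were -3.49 and -3.66. GC-corrected offsets gave -2.38 near NFKBIA, -2.14 at GAREM1 and 3.65 at PERM1, all still called.

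Leaving out 1 library moved some other named changes by over 1.5-fold while they stayed called. Without the first vehicle library, TNFSF9 was 4.84, MARCKSL1 3.83, OAZ1 3.72, CROCC2 2.51 and the interval past GADD45B 3.55 on the log2 scale; CROCC2 was 3.82 without the second. Without the first sorbitol library the 2 intervals near TOMM20 were -3.22 and -1.91, and the second of them was -3.09 without the second sorbitol library.

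**Figure D4:**
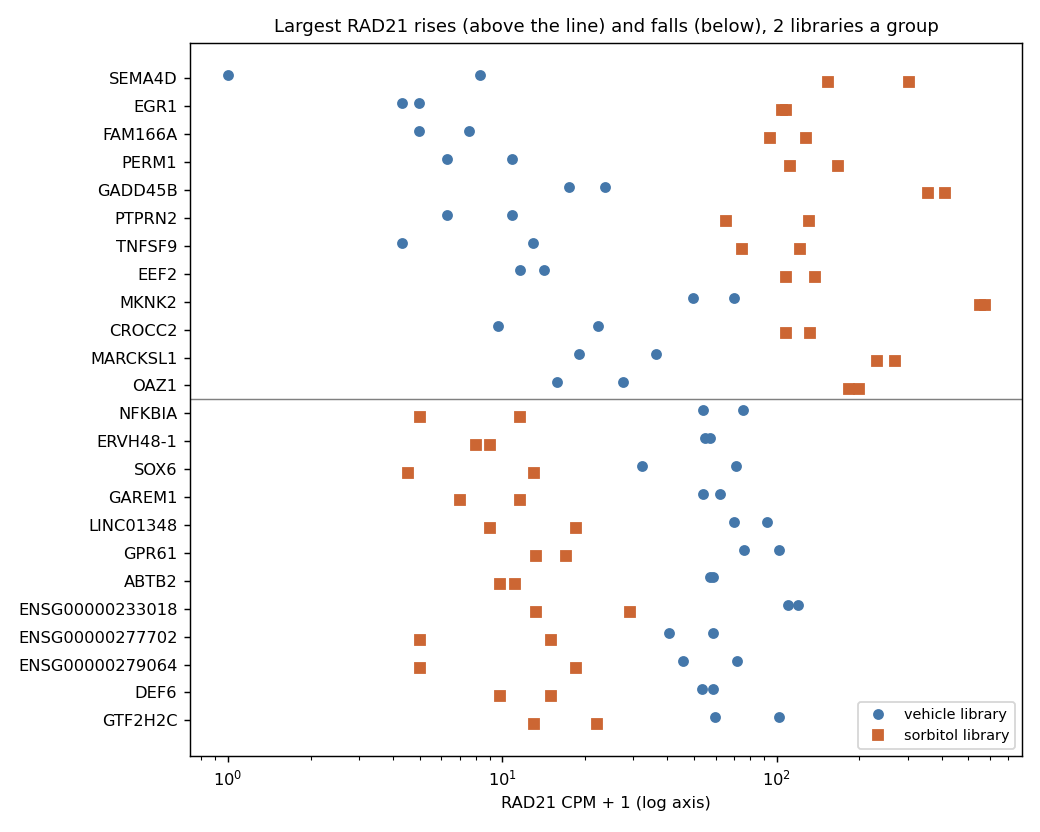
RAD21 CPM plus 1, on a log axis, in each library at the 12 largest rises (above the line) and 12 largest falls (below it) among called intervals with a mean of at least 30 counts. Circles are vehicle and squares sorbitol libraries, and rows carry the gene that holds the interval or has the nearest start site. By the rule that chose them the groups do not overlap in any row. At SEMA4D the smallest vehicle value is 0 CPM.

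The most occupied distal CTCF sites had changes on both sides of 0. The 8 distal consensus intervals with the highest mean RAD21 had log2 changes from -0.45 to 1.09, and none was called. AKAP1, an anchor of protein kinase A at mitochondria, has the site past its gene end (chr17:57130895-57132699) at 239 and 356 CPM with vehicle and 282 and 149 with sorbitol, so the groups overlapped (-0.45 ± 0.34, edgeR adjusted p = 0.46). CDH15, a muscle cadherin gene, holds one in a coding exon (chr16:89192417-89193437) at 146 and 199 CPM against 327 and 404, with the sorbitol libraries higher (1.09 ± 0.29, edgeR adjusted p = 0.056). The strongest of all (chr15:99926456-99928524) had 311, 742, 715 and 465 CPM in the 4 libraries, with vehicle spanning sorbitol. The other 5 belong to a tandem array on chromosome 19 (chr19:50092377-50139701). That array holds 11 consensus intervals with a median spacing of 5.33 kb and 1 distinct 14-letter site. Their changes ranged from -0.23 to 0.39 and 0 of 11 were called by the edgeR test or by DESeq2, with 0 at an unadjusted p under 0.05. Reads from identical copies cannot be assigned to 1 of them. At 5 of these array intervals, CTCF changed by 0.86 to 0.95.

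Pooling neighbouring intervals raised the counts behind a value. Members chained at gaps of at most 10 kb formed 44955 neighbourhoods, of which 14011 were tested by edgeR and 413 (2.95%) called, 325 higher (2.32%) and 88 lower (0.628%). Of the called neighbourhoods, 100 held no called interval. Total-count scaling turned the balance to 160 higher and 247 lower, and moved the median from 0.00 to -0.29. The count was 1249 without the first sorbitol library and 1073 without the second.

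The 9 intervals around GADD45B formed the largest pooled rise, with 135 and 61 vehicle counts against 344 and 333 sorbitol counts (log2 change 2.86 ± 0.22, edgeR adjusted p = 1.5e-04). A pair around CKS2, a subunit of cell-cycle kinases, and SECISBP2, needed for selenoprotein synthesis, had 48 and 15 counts against 84 and 111 (2.77 ± 0.30). GLUL, glutamine synthetase, had 45 and 19 against 99 and 91 (2.65 ± 0.26), and PLIN5, a lipid droplet protein, 72 and 24 against 106 and 147 (2.54 ± 0.28). The vehicle library totals are larger, so scaled values differ by more than raw counts. The fifth, on chr21:8986703-8988720, lies in the repeat-rich short arm.

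Named neighbourhoods had to hold more than a single interval, so the pooled falls are broader than single peaks by that rule. The neighbourhood near TOMM20 covered 34.3 kb and 7 intervals and had 405 and 163 vehicle counts against 40 and 43 sorbitol counts, or 257 and 261 against 72.5 and 90.2 CPM (-1.67 ± 0.23, edgeR adjusted p = 0.0032). That near TEX35 went from 109 ± 0.123 to 32.3 ± 4.71 CPM (-1.75 ± 0.30). That near MEIS1, a homeobox gene, went from 126 ± 4.07 to 43.5 ± 5.14 CPM (-1.53 ± 0.27). Those near STC2, a secreted glycoprotein gene, and EPS8L3 held no called interval and changed by -1.60 ± 0.34 and -1.47 ± 0.29. STC2 was no longer called without the first sorbitol library (-1.16, edgeR adjusted p = 0.062).

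RAD21 was also described near immediate early genes, which signals switch on without new protein synthesis. The 39 genes had 140 members within 10 kb of a start site, 72 were tested (51.4%), and 14 were higher and 0 lower by the edgeR test, 19.4% against 3.93% of all tested intervals. The median log2 change of the tested intervals was 0.62 against 0.02 for all, and 53 of 72 were positive. DESeq2 called 9 intervals of the list. Leaving out a library gave 12 to 17 calls, all higher except without the second sorbitol library, where 12 were higher and 2 lower. Without the dominant intervals, the list's 140 members took 0.307% and 0.310% of RAD21 counts with vehicle and 0.524% and 0.589% with sorbitol. The log2 change was 0.85 ± 0.12, and 0.66 ± 0.18 with the dominant intervals kept. The list's share of CTCF counts changed by more, 1.14 without the dominant intervals and 0.97 with them. The list was chosen with earlier results of these data known. The called intervals lay near 10 genes: GADD45B with 3, EGR1 and JUND with 2 each, and FOSB, IER2, IER3, ATF3, KLF4, KLF6 and DUSP1 with 1 each. FOSB, a partner in AP-1, had a promoter interval (chr19:45469657-45470715), which also lies in ERCC1, that rose from 10.6 and 11.5 to 107 and 62.3 CPM (2.94 ± 0.43, edgeR adjusted p = 0.003). ATF3, a stress-induced transcription factor, rose at its promoter (chr1:212607935-212609946) from 59.0 and 51.1 to 179.5 and 203 CPM (1.78 ± 0.28). JUN itself held no called interval, and its summed change of -0.03 had overlapping groups.

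**Figure D5:**
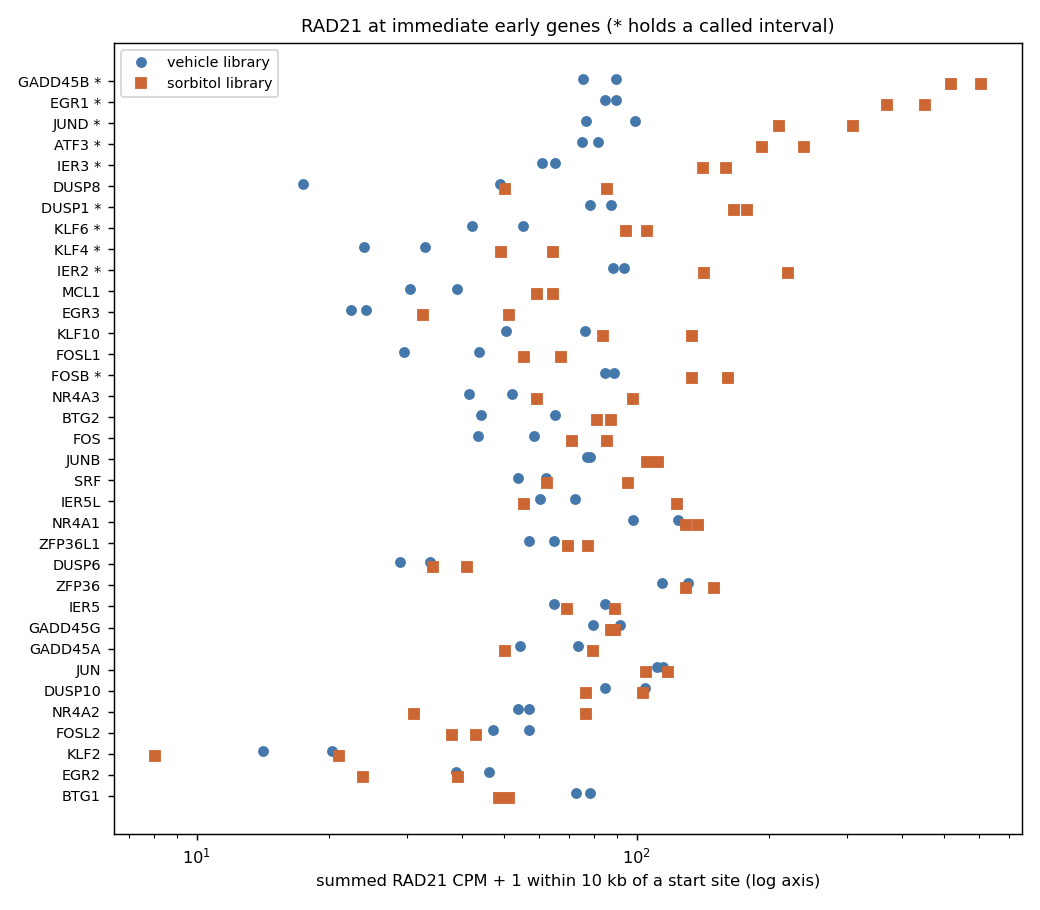
Summed RAD21 CPM plus 1, on a log axis, of members within 10 kb of a start site in each library, for the 35 immediate early genes with a tested interval, ordered by mean log2 change. Circles are vehicle and squares sorbitol libraries, and an asterisk marks genes with a called interval. Both sorbitol libraries lie above both vehicle libraries at 23 genes, below at FOSL2 and BTG1, and overlap at 10. The same count over all genes was not made, so these numbers describe the figure only.

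The other 3 lists held 0 edgeR calls at the main setting. Osmotic stress genes, which protect cells against hypertonic conditions, had 24 of 67 members tested and a median log2 change of 0.29. YAP target genes had 21 of 89 tested and a median of -0.35. Genes of the cohesin machinery, such as SMC1A, SMC3, NIPBL and WAPL, had 15 of 62 tested and a median of 0.00. At an unadjusted p under 0.05 the edgeR test had 3, 4 and 5 intervals of these lists, beside 23.4% of all tested intervals, and DESeq2 called 0 in each. Their shares changed by 0.09 ± 0.20, 0.12 ± 0.11 and -0.01 ± 0.15 without the dominant intervals and by -0.10 ± 0.09, -0.06 ± 0.05 and -0.20 ± 0.17 with them, so the sign for the osmotic and YAP lists depended on these intervals. FOXF2, a forkhead transcription factor gene, held 31.5% and 42.5% of the YAP list's counts with vehicle and 55.0% and 58.3% with sorbitol. Without FOXF2 the YAP list changed by -0.41 ± 0.08 without the dominant intervals and by -0.60 ± 0.18 with them, a setting chosen after its values were seen. Differences between lists were not tested.

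RAD21 calls were set beside those of the other targets, measured in libraries of their own. Of tested intervals, 40.7% were called for CTCF, 5.90% for YAP1 and 23.0% for H3K27ac. Of the 412 RAD21 rises, 365 were also called higher for CTCF, which is 88.6% of the RAD21 rises and 4.93% of the 7402 CTCF rises; 19.5% of tested CTCF intervals were called higher. Of the 175 RAD21 falls, 148 were called lower for CTCF, or 84.6% of the falls and 1.84% of the 8062 CTCF falls (21.2% of tested). YAP1 was called higher at 215 of the RAD21 rises (52.2%, and 22.3% of the 964 YAP1 rises, themselves 4.41% of tested). H3K27ac was called lower at 167 of the RAD21 rises (40.5%) and higher at 71 (17.2%), where 14.4% and 8.56% of tested intervals were called lower and higher for H3K27ac. GADD45B and MKNK2 show this: their RAD21 rose by 4.23 and 3.29 while H3K27ac at the same intervals changed by -2.02 and -1.84. CTCF at these intervals rose by 5.15 ± 0.16 and 3.94 ± 0.15, and at the EGR1 coding exon interval by 6.18 ± 0.21.

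Distal consensus intervals also held a smaller part of CTCF counts. Without the dominant intervals, their share of CTCF counts changed by -0.32 ± 0.01, and the difference of RAD21 from CTCF was -0.41 (exact permutation p = 0.33 over 36 arrangements, adjusted p = 0.67 over 105 classes, smallest possible p 0.056). This difference did not pass the test. Distal members with high H3K27ac but not high CTCF changed by -0.05 ± 0.03 for RAD21 and 0.32 ± 0.03 for CTCF. The p was the smallest that 36 arrangements give, 0.056 (exact permutation, adjusted p = 0.67). Other classes, among them chromosomes 9 and X, reached the same p, so it does not single out this class.

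At single intervals, the edgeR interaction of target and treatment was called at 227 of 40309 tested members (0.563%), with RAD21 above CTCF at 37 (0.0918%) and below at 190 (0.471%). The median interaction of all tested intervals was -0.23, and the calls are read against that shift. With a mean of at least 50 counts, the balance was 119 above and 57 below, and DESeq2 gave 45 and 64. Without the first vehicle RAD21 library 444 were called and without the second 525.

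COLEC11, a collectin of innate immunity, had the largest of the named differences in favour of RAD21. Its promoter interval (chr2:3605060-3605947) rose from 48.4 and 47.8 to 371 and 390.2 RAD21 CPM (2.98 ± 0.29), while CTCF changed by 0.80; the difference was 2.31 ± 0.41 (edgeR adjusted p = 0.0041). LINC01237 rose from 68.9 ± 21.4 to 423 ± 47.8 CPM with a difference of 1.84 ± 0.31. An intron of AKR1E2 had a difference of 1.91 ± 0.42, where RAD21 itself was not called (1.07 ± 0.44, edgeR adjusted p = 0.17). In the other direction, the promoter of SOCS1 inside RMI2 (chr16:11254619-11256928), an inhibitor of cytokine signalling, changed by 0.91 ± 0.28 for RAD21 and 3.60 for CTCF, a difference of -2.57 ± 0.31 (edgeR adjusted p = 1.3e-05). TSPAN9 and SCAF1 had differences of -2.42 ± 0.57 and -2.40 ± 0.46, with RAD21 changes of -0.05 and -0.36.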

How the data were processed

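RAD21 CUT&Tag was analysed in 4 libraries of HEK293, with CTCF, YAP1 and H3K27ac libraries for comparison. The values used are unscaled read counts for each peak interval, as deposited by the authors. The submitters' processing notes name Trim Galore, FastQC, BWA 0.7.17, SAMtools, Picard, bedtools 2.31.1, MACS2 2.2.6 and hg38, without roles; how peaks were pooled is not given in the sources used here. Annotation was GENCODE 44. Mitochondrial, contig, Y and YAP1 gene intervals were left out before library sizes were taken. The main test was edgeR 4.0.16 (R 4.3.3; robust quasi-likelihood, two-sided) with TMM, a filter at a minimum of 10 counts and Benjamini-Hochberg adjustment at 0.05; DESeq2 1.42.0 was an alternative. CPM are counts per 1e6 of TMM-scaled member counts, and SEs derive from the F statistic. Class shares used every member without a filter. The CTCF consensus has 14 letters. Named intervals were the 12 largest rises and falls among calls with a mean of at least 30 counts and groups apart, the 8 strongest distal consensus intervals, up to 6 called intervals per list, 5 neighbourhoods each way with a mean of at least 60 counts and 3 interactions each way; central sequences are shown for 3 of them. The edgeR step was tested on simulated data. Replicates differed by more than sampling noise (chi-square per degree of freedom 2.77 with vehicle, 2.45 with sorbitol). Alternatives covered scaling, filters, GC offsets, gap, promoter and list widths, the replicate number and left-out libraries; those leaving out dominant or low-complexity intervals for calls, or RAD21 libraries in interactions and lists, were chosen after seeing the data. The members and lists were chosen with earlier results of these data known.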

Additional observations from a re-analysis of the deposited data

Results flagged for a closer look

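The test of a difference between targets marked 227 intervals where the response of RAD21 differed from that of CTCF and 80 (0.370% of tested) where it differed from that of YAP1, by the edgeR interaction test. The 6 named differences from CTCF were 2.31 at COLEC11, 1.91 at AKR1E2, 1.84 at LINC01237, -2.57 at SOCS1, -2.42 at TSPAN9 and -2.40 at SCAF1 on the log2 scale.

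Intervals that the comparison leaves out also held RAD21 counts, at a higher share with sorbitol than with vehicle. Mitochondrial intervals took 36.4% ± 2.97 of all RAD21 counts with vehicle and 45.4% ± 0.893 with sorbitol. The 344 contig intervals took 0.682% ± 0.0189 and 1.26% ± 0.0373. The 12 intervals in the YAP1 gene took 8.33% ± 2.53 and 10.4% ± 0.353, and there the second vehicle library (10.1%) was close to the sorbitol libraries (10.7% and 10.2%).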

How the results depend on the processing

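No alternative run reversed the direction of a named interval, a neighbourhood or any class given next. Of all 105 classes, 16 had another sign without the dominant intervals, among them promoters in 3 of the 5 GC quintiles. The 587 called intervals became 304 with DESeq2, 1458 with scaling to the weakest 25% of tested intervals, 1217 with no count filter, 276 with a mean of at least 50 counts and 2596 in one fit on all 16 libraries. Leaving out a library gave 774 to 1239 intervals, 578 to 1249 neighbourhoods, 268 to 525 differences from CTCF and 180 to 334 from YAP1. It gave 0 to 1 calls for osmotic stress, 0 to 2 for YAP targets and 0 to 1 for cohesin machinery genes. DESeq2 called 109 differences from CTCF, and total scaling 300 from YAP1. The osmotic stress list had 1 call at 50 kb, and the cohesin list 1 with total scaling. With a mean of at least 10 counts, promoters changed by 0.07, promoters without the consensus by 0.12 and the highest 25% by H3K27ac by 0.09. Without the dominant intervals, gene-end zones changed by -0.47, distal consensus intervals by -0.73 and distal intervals high in CTCF and low in H3K27ac by -0.59. As medians of tested intervals, gene-end zones were at -0.77, the highest 25% by H3K27ac at 0.15 and the CTCF-high, H3K27ac-low intervals at -1.01. Of the alternatives for named intervals and neighbourhoods, 532 kept the side of the threshold and 13 did not. Only alternatives that tested the interval and gave an adjusted p were counted. DESeq2 gave 33 of these, against 38 for the replicate block. The mean of at least 50 counts gave 8, against 28 with no count filter. The cause of these shifts was not tested.

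The replicate numbers pair the libraries only by name: deviations of same-numbered RAD21 libraries had a correlation of -0.0036 across intervals. With the replicate number as a block, 518 intervals, 708 neighbourhoods, 169 differences from CTCF, 39 from YAP1 and 11 immediate early intervals were called. The block ended no call at a named interval or neighbourhood. The median member held 2 counts in each sorbitol library, and the part of depth in the number of calls was not tested.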

Other observations

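Chromosome 21 held 9.95% of the RAD21 rises against 1.69% of tested intervals, and the gain lay in its first 9 Mb, a split chosen after its values were seen. With the dominant intervals kept, the 189 members there took 1.31% and 1.37% of RAD21 counts in vehicle libraries, against 2.76% and 2.66% in sorbitol libraries, a log2 change of 1.02 ± 0.06. They include the 5 dominant ribosomal DNA intervals, and the value without those was not computed. Chromosome 21 as a whole changed by 0.72 ± 0.03 with the dominant intervals and by 0.65 ± 0.07 without them. The 729 members on the rest of the chromosome changed by -0.04 ± 0.18, with overlapping groups. The first part holds ribosomal DNA copies, of which the interval at chr21:8248992-8252040 rose by 2.41 on the log2 scale (edgeR adjusted p = 0.0012), and reads there cannot be assigned to 1 copy.

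The 126 rises in sequence of low complexity had a median log2 change of 2.47, and 95 of them were called higher for CTCF by the edgeR test. That is a smaller part than among all 412 RAD21 rises, where 365 (88.6%) were. Of all intervals tested for CTCF, 19.5% were called higher. Without the dominant intervals, the 2639 members of low complexity took 4.21% and 5.15% of RAD21 counts with vehicle and 8.13% and 8.08% with sorbitol (log2 change 0.80 ± 0.21).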
